A study of Mus musculus with 13 samples.

Results

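A set of 49 genes, of 20325 in the expression files, had their highest RNA level in wild-type cells at day 2 of a 10-day treatment, with lower levels both before it and at day 10. The cells were mouse pre-iPSCs: embryonic fibroblasts that had begun reprogramming to induced pluripotent stem cells and stopped short of it. RNA was sequenced from wild-type (WT) pre-iPSCs and from pre-iPSCs lacking Kdm3b (knockout, KO), the gene of a demethylase of histone H3 lysine 9. Each genotype was sampled at day 0, day 2 and day 10, with 2 libraries per group (A and B). A single further library came from mouse V6.5 embryonic stem cells (ESCs). All cultures were kept in serum-containing ESC medium with LIF, and the treatment, called AA+2i, added ascorbic acid, the GSK3 inhibitor CHIR-99021 and the MEK inhibitor PD-0325901. The 4 day 0 libraries are titled DMSO, although a second label names AA+2i for them too; they were read as the untreated start. The ESC library also carries the AA+2i label at time 0, so whether those cells were treated is uncertain. Neither the day 2 nor the day 10 cultures have an untreated counterpart of the same day, and those of day 10 had been split at day 4. Treatment and time in culture can therefore not be told apart at either day. The labels do not say how many knockout clones were used or whether A and B were separate cultures. The p-values therefore measure only the spread between these libraries, which may be technical.

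The genes were chosen from the WT libraries alone, on CPM (a gene's expected count divided by the sum of its library and multiplied by 1000000). The lower of the 2 WT day 2 libraries had to hold at least 5 CPM and, after adding 1 CPM, to be at least 2 times the highest of the 4 WT libraries of day 0 and day 10. A further 2 genes met these values and were left out by name, Sp5 with a lower day 2 value of 5.95 CPM against at most 1.16 CPM in the other WT libraries, and Wnt8a with 69.2 against 3.01 CPM. The rule also bars the Hox, Fox and Col genes and 4 more Wnt-related genes. The WT values are therefore a description, with no test. The KO libraries had no part in the choice, and the question put to them was whether KO cells show the same peak or keep the genes on.

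As background, GSK3 marks beta-catenin for destruction, so an inhibitor of GSK3 lets it accumulate and act with TCF and LEF proteins on Wnt target genes. Several of those targets, among them Notum and Axin2, encode brakes on the pathway. A MEK inhibitor lowers ERK signalling, whose early target genes are mostly short-lived in expression, and ascorbic acid is a cofactor of the enzymes that remove methyl groups from histones and from DNA, KDM3B among them. A gene that is on briefly during a change of cell identity can belong to the starting cells, to an intermediate or to an acute response to the medium, and RNA from a whole culture does not separate these.

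In KO, 36 of the 49 genes were called higher at day 2 than before treatment, against 4.02% of all genes tested, and 41 were called higher at day 10 than before treatment, against 9.93% (edgeR). Of the 49, 7 were called at neither day. Applied to the 6 KO libraries, the rule of the WT peak was met by 0 of the 49 genes, and by 5 of the other 20276 genes (0.0247%). The same shape below the 5 CPM minimum was seen in 0 of the 49 and in 0.0148% of the others. With shares that low among the other genes, neither count of 0 sets the 49 genes apart. Of the 49, 31 (63.3%) met the rise at day 2 and did not meet the fall by day 10, against 1.03% of the other genes. Another 10 (20.4%) met the rise at day 10 only, against 2.28%. In 4 genes (Chst1, Cxx1a, Lhpp and Zfp791; 8.16%) both KO day 0 libraries already held at least 5 CPM and neither rise was met, a class that takes in 47.8% of the other genes, and the last 4 (Igfbpl1, 6430573F11Rik and the pair Gm14430 and Gm14434) met none of these descriptions, against 3.72%. A class of genes under 5 CPM in all KO libraries, filled after the rise classes, held 0 of the 49 and 45.1% of the other genes. Members that met a rise could also lie under 5 CPM in all KO libraries, as Akr1c13, Asprv1, Dmrtc1b, Lyg1 and Zfp677 did. These classes rest on 2-fold steps between single libraries and carry no test. The absence of a KO peak depended on the KO day 2 A library: without it 5 of the 49 met the rule (Abca8b, Fras1, Hhip and the identical pair Gm14430 and Gm14434). Over all genes, 102 met it without that library, against 5 with every library in. With KO day 10 A left out, 1 of the 49 did (Hhip), and 10 of all genes.

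**Figure D1:**
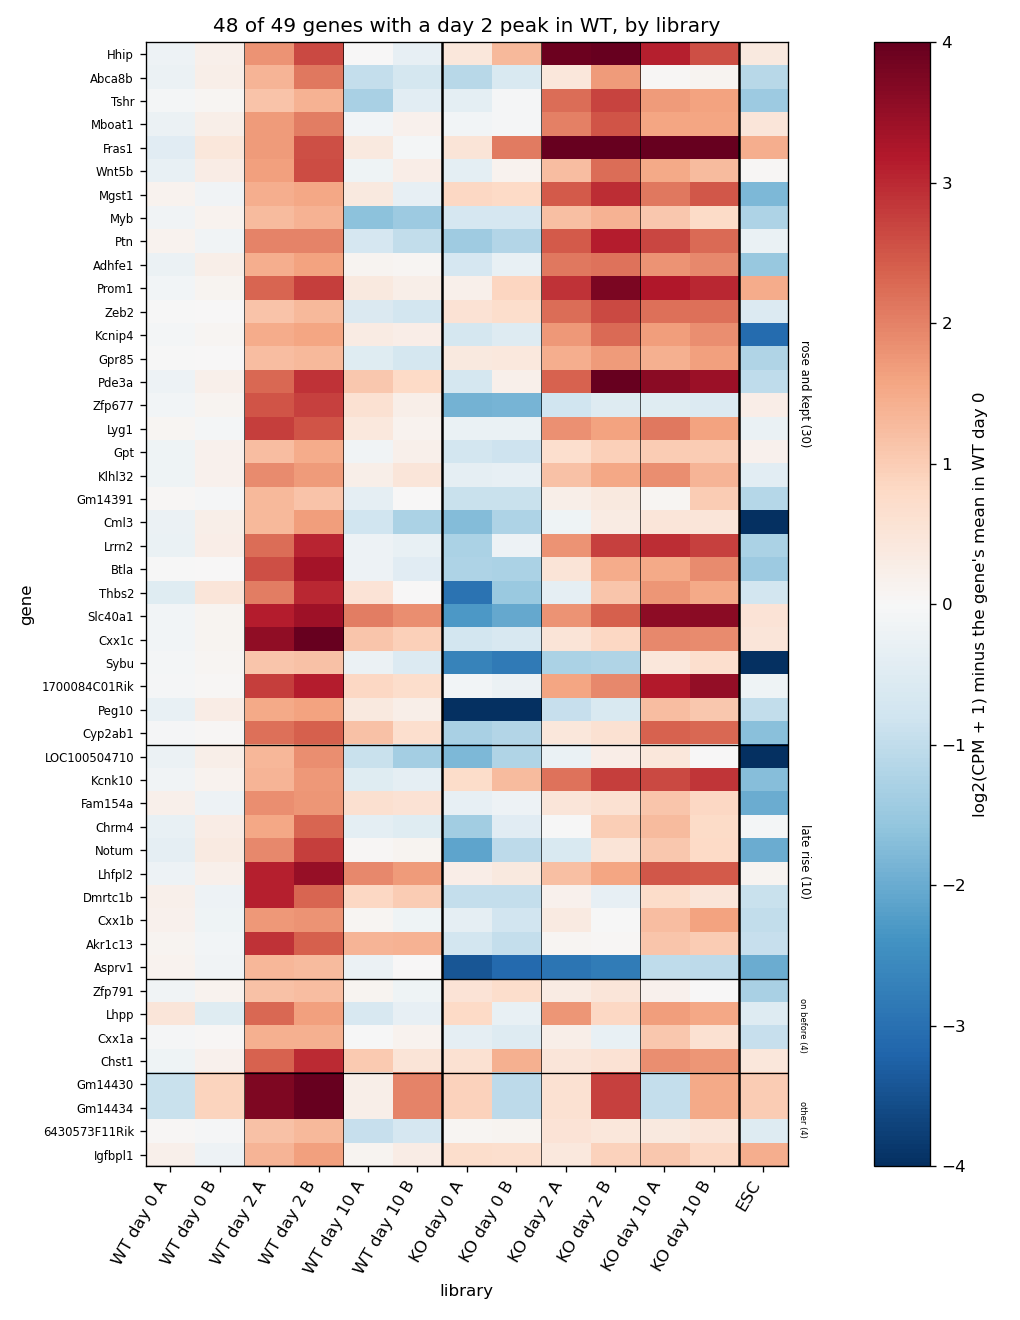
Expression of 48 of the 49 genes (rows) in each of the 13 libraries (columns), as log2(CPM + 1) minus the mean of the gene's 2 WT day 0 libraries (so that red is above WT day 0 and blue below), with the colours ending at 4 log2 units in either direction and the genes grouped by their KO class. The WT columns are highest at day 2, by the choice of the genes. In 21 of the 49 genes both KO day 10 libraries lie above both of day 2, against 22.4% of all genes with a count.

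Comparisons within KO were tested with edgeR's quasi-likelihood test, fitted on all 12 pre-iPSC libraries over 14324 genes, with a gene called changed at a false discovery rate (FDR, the Benjamini-Hochberg adjusted p) under 0.05. All 49 genes passed the filter on low counts, also when it was applied to the KO libraries alone. Between day 0 and day 2, 36 of the 49 (73.5%) rose in KO, against 4.02% of all genes tested, and 0 fell, against 2.37% (edgeR; 0 fell at an unadjusted p under 0.05 and 0 by DESeq2). Between day 0 and day 10, 41 (83.7%) rose, against 9.93%, and 0 fell, against 5.19% (edgeR; 1, Zfp791, at an unadjusted p under 0.05 and also by DESeq2). Between day 2 and day 10, 0 fell, against 0.607% (edgeR; Abca8b, Hhip, Mboat1 and Myb at an unadjusted p under 0.05, and Hhip and Mboat1 by DESeq2, which called 3.11% of all genes lower), and 8 (16.3%) rose further, against 2.49%. The median log2 fold change of the 49 in KO was 2.22 at day 2 and 2.39 at day 10 against day 0, and 0.24 between day 2 and day 10, where the medians over all genes tested were 0.011, -0.014 and -0.0045. In WT, where the rule fixes the pattern, the same 3 medians were 2.21, 0.01 and -2.29. A fit on the 6 KO libraries alone gave 23 rises at day 2 and 35 at day 10 against day 0, and 0 changes of any gene between day 2 and day 10. The members whose rise at day 2 was lost in that fit, with an FDR of at most 0.160, were Abca8b, Akr1c13, Cml3, Dmrtc1b, Fras1, Gm14391, Gpr85, Kcnk10, LOC100504710, Lhfpl2, Pde3a, Thbs2 and Wnt5b, and those lost at day 10 were Chrm4, Cxx1a, Fras1, Gm14391, Hhip and Wnt5b, with at most 0.0980 (edgeR).

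Seen by gene, 35 of the 49 rose in KO at both day 2 and day 10 against day 0. A further 6 (Asprv1, Chrm4, Cxx1a, Cxx1b, Fam154a and Notum) rose at day 10 only, Abca8b rose at day 2 only, and 7 (Chst1, Lhpp, Zfp791, Igfbpl1, 6430573F11Rik, Gm14430 and Gm14434) were called at neither day. In this fit 0 genes rose by day 2 and then fell by day 10, a count that depended on the fit. DESeq2 called Hhip and Mboat1 lower at day 10 than at day 2 (2 of the 49, against 3.11% of all genes tested). With the library letter, A or B, as a replicate block, Abca8b, Hhip and Mboat1 were called lower (3 of the 49, against 3.11% of all genes tested), and with that block at days 0 and 2 only, Myb and Tshr as well (5 of the 49, against 16.5%). Each of these 5 had risen at day 2. Both KO day 2 libraries lay above both day 0 libraries in 44 genes, against 15.6% of all genes with a count, and below them in 2, against 12.1%. At day 10 both lay above both day 0 libraries in 46 (background 27.3%) and below in 1 (18.2%). Against day 2, both KO day 10 libraries were higher in 21 (22.4%) and lower in 8 (14.9%). Leaving out each of the 12 libraries in turn, 24 of the 36 rises at day 2, 32 of the 41 at day 10 and 2 of the 8 further rises (Cyp2ab1 and Sybu) kept their calls in every fit.

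**Figure D2:**
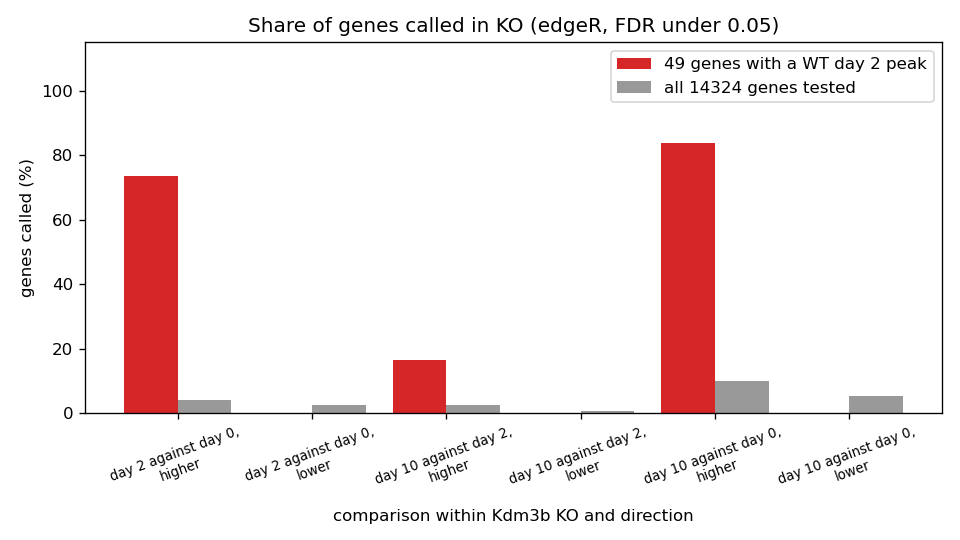
Percent of the 49 genes (filled bars) and of all 14324 genes tested (background bars) called higher or lower in KO for each pair of days, at FDR under 0.05 in edgeR's quasi-likelihood test. The set stands at 73.5% higher at day 2 and 83.7% at day 10 against day 0, with 0 called lower in any of the 3 comparisons.

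Among the genes of secreted signals, the Wnt members were called higher in KO than before treatment, Notum at day 10 and Wnt5b at both days. Notum, a secreted enzyme that strips the lipid from Wnt proteins and thereby silences them, is a textbook target of beta-catenin. In WT, Notum stood at 29.9 and 50.00 (day 0), 149 and 272 (day 2) and 40.0 and 42.2 (day 10) CPM, and in KO at 8.30 and 18.3 (day 0), 25.2 and 56.1 (day 2) and 83.5 and 67.6 (day 10) CPM. The KO day 2 libraries lay below both WT day 2 libraries and overlapped WT day 0, and both KO day 10 libraries were above both of WT day 10. Its rise in KO did not pass at day 2 (log2 fold change 1.60, SE 0.447, FDR = 0.0777) and passed at day 10 against day 0 (log2 fold change 2.47, SE 0.458, FDR = 0.00769, edgeR). That day 10 call was lost without KO day 0 A and also without KO day 10 A. Over the fits that leave out 1 library, its log2 fold change ran from 2.04 to 3.11. Wnt5b, a ligand mostly tied to signalling without beta-catenin, held 1.25 and 2.44 (day 0), 7.69 and 16.1 (day 2) and 1.49 and 2.33 (day 10) CPM in WT. In KO, Wnt5b held 1.12 and 2.04 (day 0), 5.52 and 11.95 (day 2) and 6.998 and 5.75 (day 10) CPM. The KO and WT libraries overlapped at day 2, and at day 10 KO was higher in both. Wnt5b rose in KO at day 2 (log2 fold change 2.44, SE 0.510, FDR = 0.0239) and at day 10 (log2 fold change 1.96, SE 0.508, FDR = 0.0323), and both calls were lost in 5 of the 12 fits that leave out 1 library, with FDR up to 0.169 at day 2, when KO day 0 A was left out, and up to 0.166 at day 10, when KO day 10 A was. In a culture, fewer cells with an RNA and less of it per cell cannot be told apart, for these genes or for any below.

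The wider list of Wnt feedback and target genes, drawn up from textbook knowledge with earlier results of these data known, had calls in both directions in KO. Of its 27 entries 23 were tested. Between day 0 and day 2, 5 of the 23 rose, against 4.02% of all genes tested, and 3 fell, against 2.37%. The median log2 fold change was 0, against 0.011 over all genes. That 0 is the value of Sp5 and Cdx2, which were at 0 CPM in every KO library of day 0 and day 2. The risers were Axin2 (log2 fold change 6.57), a scaffold of the beta-catenin destruction complex, Nkd1 (2.16), Sp8 (4.54), Tnfrsf19 (2.42) and Wnt8a (7.02), and those that fell were Bmp4 (-3.79), Ccnd1 (-0.85) and Lef1 (-1.21). The folds of Axin2 and Wnt8a rest on KO day 0 libraries at 0 and 0.0496 CPM and at 0 and 0.199 CPM. Their size is therefore uncertain. At day 10 against day 0, 8 of the 23 rose, Notum among them, against 9.93% of all genes tested, and 2 fell, against 5.19%. Between day 2 and day 10 there were 0 calls in either direction, against 2.49% higher and 0.607% lower over all genes tested. Axin2, barred from the set by name, held 0.227 and 0.519 (day 0), 11.8 and 17.7 (day 2) and 8.87 and 12.2 (day 10) CPM in WT. In KO, Axin2 held 0 and 0.0496 (day 0), 2.11 and 3.66 (day 2) and 7.50 and 13.4 (day 10) CPM. Its WT day 10 libraries overlapped those of WT day 2.

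The sequences around the start sites held the TCF/LEF word, through which beta-catenin acts, about as often as all promoters did. RefSeq windows of 300 bases (250 before to 50 after the transcript start, build GRCm38.p6, which is not the mm9 build of the expression files) were at hand for 35 of the 48 genes matched to RefSeq, 47 windows in all. A TCF/LEF word (CTTTGAA or CTTTGAT or CTTTGTA or CTTTGTT, either strand) lay in 8 of the 47, which is 17.0%, and in 16.9% of all 32851 windows. The shares among the 47 and among all were 10.6% and 7.81% for the AP-1 word TGANTCA, 8.51% and 8.30% for the STAT word TTCNNNGAA, 2.13% and 1.79% for the CRE word TGACGTCA, 6.38% and 11.2% for the GATA word AGATAA, 8.51% and 13.6% for TATAAA, and 0% and 0.213% for the SMAD word GTCTAGAC. The SRF word searched lay in 0% and 0.0639%. The median number of CpG per window was 7 in both. A match is a string of letters, not a bound site, and the missing windows include that of Notum. The 3 windows below, 250 bases before the start each, carry the TCF/LEF word upstream of a Wnt ligand and of 2 other genes of the set. They belong to Wnt5b (chr6:119449387-119449636, minus strand, word starting at base -71 from the start), Lyg1 (chr1:37957760-37958009, minus strand, base -139) and Cyp2ab1 (chr16:20325405-20325654, minus strand, base -81). Wnt5b has 3 windows in all, and its others held no such word upstream. In KO, Lyg1 and Wnt5b had the same calls, higher at day 2 and at day 10 than at day 0. Cyp2ab1 was also called higher at day 10 than at day 2. Capitals mark the word, and each window is written 5′ to 3′ on the gene's strand.
Wnt5b: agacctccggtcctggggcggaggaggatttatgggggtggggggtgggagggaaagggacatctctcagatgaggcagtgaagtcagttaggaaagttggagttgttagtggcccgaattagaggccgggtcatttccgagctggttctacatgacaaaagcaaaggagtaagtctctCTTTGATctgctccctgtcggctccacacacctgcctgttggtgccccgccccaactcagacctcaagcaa
Lyg1: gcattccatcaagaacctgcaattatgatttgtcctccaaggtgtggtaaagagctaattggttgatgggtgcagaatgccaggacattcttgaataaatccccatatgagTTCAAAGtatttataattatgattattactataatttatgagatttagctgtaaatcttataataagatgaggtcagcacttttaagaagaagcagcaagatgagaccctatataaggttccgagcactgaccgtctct
Cyp2ab1: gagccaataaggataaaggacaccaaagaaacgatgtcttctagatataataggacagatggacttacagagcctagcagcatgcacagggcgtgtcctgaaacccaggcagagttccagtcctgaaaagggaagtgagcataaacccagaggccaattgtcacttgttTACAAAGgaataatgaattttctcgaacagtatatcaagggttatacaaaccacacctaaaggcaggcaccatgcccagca

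Hhip and Ptn are further members of signalling pathways, and in KO each was called higher at day 2 and at day 10 than at day 0. Hhip, a membrane and secreted protein that traps Hedgehog ligands, held 1.25 and 2.02 (day 0), 7.98 and 15.3 (day 2) and 1.65 and 1.10 (day 10) CPM in WT. In KO, Hhip held 2.60 and 5.46 (day 0), 38.2 and 110.1 (day 2) and 21.4 and 14.7 (day 10) CPM. The KO day 2 libraries were above every WT library, and the day 10 libraries lay between those of day 0 and day 2. It rose at day 2 (log2 fold change 4.18, SE 0.572, FDR = 0.00353) and was still called higher at day 10 than at day 0 (log2 fold change 2.12, SE 0.534, FDR = 0.0291), a call lost in 5 fits that leave out 1 library (FDR up to 0.173, without KO day 10 A). Its KO day 10 mean was 24.4% of the day 2 mean, and its log2 difference of -2.06 was not called (FDR = 0.0725, edgeR). That drop was called by DESeq2 (adjusted p = 0.00454) and with the replicate block (FDR = 0.0332, edgeR).

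Ptn encodes pleiotrophin, a heparin-binding growth factor of developing tissues. WT libraries held 2.64 and 1.97 (day 0), 12 and 11.97 (day 2) and 1.05 and 0.647 (day 10) CPM, and KO libraries 0.225 and 0.448 (day 0), 16.8 and 28.3 (day 2) and 20.1 and 14.8 (day 10) CPM. In KO both day 2 and both day 10 libraries lay above the WT peak, and the rise at day 2 was log2 fold change 6.04, SE 0.439, FDR = 0.000222 (edgeR).

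Matrix and secreted proteins were also in the set. Thbs2, a thrombospondin that restrains vessel growth, held 7.49 and 15.4 (day 0), 47.3 and 95.1 (day 2) and 16.3 and 11 (day 10) CPM in WT. In KO, Thbs2 held 0.539 and 3.18 (day 0), 8.30 and 24.5 (day 2) and 38.9 and 32.8 (day 10) CPM. Both KO day 10 libraries lay above both of WT day 10. Its rise at day 2 (log2 fold change 3.14, SE 0.756, FDR = 0.0437) was lost in 10 of 12 fits that leave out 1 library (FDR up to 0.229, without KO day 2 B), and its rise at day 10 was log2 fold change 4.25, SE 0.780, FDR = 0.00733 (edgeR). Fras1, a basement membrane protein, held 0.681 and 2.13 (day 0), 6.53 and 12.6 (day 2) and 1.98 and 1.16 (day 10) CPM in WT. In KO, Fras1 held 2.29 and 8.79 (day 0), 36.1 and 139.5 (day 2) and 68.7 and 54 (day 10) CPM. Its 4 treated KO libraries were above every WT library, and B exceeded A at KO day 0 and day 2. The 2 calls of Fras1 (day 2, log2 fold change 3.97, FDR = 0.0205; day 10, log2 fold change 3.44, FDR = 0.0189; edgeR) were lost in some fits that leave out 1 library: at day 2 without KO day 0 A (FDR = 0.112) or KO day 2 B, and at day 10 without KO day 0 A or either KO day 10 library (FDR up to 0.0924, for KO day 10 A).

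Lyg1, a secreted relative of goose lysozyme, was counted 0 times in both KO day 0 libraries. It held 0.265 and 0.156 (day 0), 7.31 and 5.94 (day 2) and 0.606 and 0.323 (day 10) CPM in WT. In KO, Lyg1 held 0 in both (day 0), 3.27 and 2.69 (day 2) and 4.25 and 2.66 (day 10) CPM. That makes KO day 2 at least 42.7-fold and KO day 10 at least 48.7-fold higher than a floor of 3 counts over the KO day 0 group. Igfbpl1, an IGF-binding protein relative, gave no call in KO: its KO libraries held 4.85 and 4.72 (day 0), 3.84 and 5.91 (day 2) and 6.69 and 5.45 (day 10) CPM, with the day 2 libraries on either side of those of day 0 and log2 fold changes of -0.01 at day 2 (FDR = 1) and 0.28 at day 10 (FDR = 0.609, edgeR).

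Of the transcription factors, Myb and Zeb2 reached or passed their WT day 2 level in KO. Myb, a factor of proliferating progenitors, held 39.4 and 47.8 (day 0), 106 and 114 (day 2) and 13.3 and 15.2 (day 10) CPM in WT. In KO, Myb held 26.9 and 27.1 (day 0), 101 and 117 (day 2) and 92.7 and 74.9 (day 10) CPM. At day 2 the genotypes overlapped, and at day 10 both KO libraries were above all WT libraries of days 0 and 10. It rose in KO at day 2 (log2 fold change 1.99, SE 0.163, FDR = 0.000328) and at day 10 (log2 fold change 1.57, SE 0.161, FDR = 0.000406), with 77.2% of the day 2 mean left at day 10 against 13% in WT. Zeb2, a repressor of epithelial genes and a driver of the mesenchymal state, held 4.20 and 4.31 (day 0), 10.7 and 11.9 (day 2) and 2.51 and 2.14 (day 10) CPM in WT. In KO, Zeb2 held 6.82 and 7.49 (day 0), 23.8 and 31.9 (day 2) and 23.4 and 23.1 (day 10) CPM. All 4 treated KO libraries were above the highest WT library, and Zeb2 rose at day 2 (log2 fold change 1.94, SE 0.184, FDR = 0.000595) and day 10 (log2 fold change 1.64, SE 0.182, FDR = 0.000659, edgeR).

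The zinc-finger genes, which by family are mostly DNA-binding repressors, varied. Zfp677 was almost silent in KO at the start (0 and 0.0243 (day 0), 1.15 and 1.61 (day 2) and 1.62 and 1.51 (day 10) CPM, the last digits at day 0 being part of a read that rounds to 0 counts) and stayed far below its WT course of 2.46 and 2.96 (day 0), 20.2 and 23.4 (day 2) and 4.63 and 3.34 (day 10) CPM. Against the floor of 3 counts over the KO day 0 group it was at least 19.0-fold higher at KO day 2 and at least 22.2-fold at day 10, and every KO library lay below every WT library. Zfp791 was among the genes already on in KO before treatment and held 7.19 and 8.98 (day 0), 19.4 and 20.4 (day 2) and 8.82 and 6.99 (day 10) CPM in WT. In KO, Zfp791 held 12.1 and 13.7 (day 0), 10.5 and 11.8 (day 2) and 9.12 and 8.24 (day 10) CPM. In KO each later day lay below the one before, with no overlap between libraries, and the difference from day 0 to day 10 just missed the threshold (log2 fold change -0.63, SE 0.184, FDR = 0.0503, edgeR).

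Dmrtc1b, of the DMRT family of sex-development factors, also had 0 counts in both KO day 0 libraries. It held 1.25 and 0.675 (day 0), 15.7 and 8.79 (day 2) and 2.48 and 2.91 (day 10) CPM in WT. In KO, Dmrtc1b held 0 in both (day 0), 1.199 and 0.537 (day 2) and 2.25 and 1.70 (day 10) CPM. Those were at least 13.1-fold and 27.8-fold over the floor at day 2 and day 10, and at day 2 all KO libraries lay below WT. Gm14430 and Gm14434 are zinc-finger gene models that carry identical values in every library, so that they count as 1 measurement of uncertain assignment. Their KO libraries disagreed with each other at every day, with 2.97 and 0.0223 (day 0), 2.20 and 12.9 (day 2) and 0.0950 and 5.07 (day 10) CPM, and gave no call at either day. Gm14391, another such model, held 2.23 and 2.26 (day 0), 6.13 and 6.93 (day 2) and 5.42 and 11.2 (day 10) CPM in KO, and its call at day 2 (FDR = 0.0372, edgeR) was lost in 10 of the 12 fits that leave out 1 library, with FDR up to 0.158.

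Of the receptors and surface proteins, Prom1 and Btla show the range. Prom1, also called CD133 and used as a marker of stem and progenitor cells, held 9.23 and 10.7 (day 0), 54.2 and 72.8 (day 2) and 13.3 and 11.9 (day 10) CPM in WT. In KO, Prom1 held 11.7 and 18.9 (day 0), 80.6 and 149 (day 2) and 100 and 87.9 (day 10) CPM. All 4 treated KO libraries were above every WT library, and Prom1 rose at day 2 (log2 fold change 2.89, SE 0.293, FDR = 0.000855) and day 10 (log2 fold change 2.57, SE 0.290, FDR = 0.000685). Btla, an inhibitory receptor known from lymphocytes, had the highest WT peak ratio by the rule, 5.89, with 1.70 and 1.82 (day 0), 15.6 and 27 (day 2) and 1.38 and 1.03 (day 10) CPM in WT. In KO, Btla held 0.180 and 0.149 (day 0), 2.97 and 6.65 (day 2) and 6.81 and 9.27 (day 10) CPM. The KO day 2 libraries stayed below the WT peak and KO day 10 was above both WT day 10 libraries, with a rise of log2 fold change 4.77, SE 0.523, FDR = 0.00121 at day 2 and log2 fold change 5.49, SE 0.521, FDR = 0.000269 at day 10 (edgeR). Of the 11 immune markers found, only Tyrobp and Emr1 were at 0 in all KO and WT pre-iPSC groups. Ptprc was at 0 at day 10 in both genotypes and was counted at day 2 in both. The 11 summed to 11.2 to 20.7 CPM at WT day 2 and 9.89 to 17.7 CPM at KO day 2. At day 10 they summed to 32.5 to 36.8 CPM in WT and 10.9 to 13.1 CPM in KO.

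Lrrn2, a leucine-rich neuronal adhesion protein, held 2.88 and 4.67 (day 0), 21.1 and 38 (day 2) and 3.09 and 2.85 (day 10) CPM in WT. In KO, Lrrn2 held 0.942 and 3.08 (day 0), 15.2 and 30.3 (day 2) and 35.6 and 30.5 (day 10) CPM. It rose in KO at day 2 (log2 fold change 3.49, SE 0.526, FDR = 0.00538) and day 10 (log2 fold change 4.00, SE 0.535, FDR = 0.00166). Its day 10 libraries were level with the WT peak. Chrm4, a muscarinic acetylcholine receptor, held 0.583 and 2.04 (day 0), 3.12 and 7.25 (day 2) and 8.997 and 6.06 (day 10) CPM in KO and rose by day 10 only (log2 fold change 2.49, SE 0.580, FDR = 0.0212, edgeR), a call lost without KO day 0 A or either KO day 10 library (FDR up to 0.136, without KO day 10 A). The other receptors, Gpr85, an orphan receptor of the nervous system, and Tshr, the receptor of thyrotropin, were above their WT level at KO day 2: Gpr85 held 14.9 and 18.1 CPM at KO day 2 against 12.8 and 13.6 CPM at WT day 2, and Tshr 12.6 and 17.7 against 5.37 and 6.47 CPM. Both rose at day 2, Gpr85 by 1.27 (FDR = 0.00538) and Tshr by 3.32 log2 units (FDR = 0.00684; 0.0572 without KO day 0 A; edgeR).

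Markers of other cell types differed between the groups beside these genes, in both directions. The summed level of 8 neuron and glia markers was 203 to 207 CPM at WT day 2, 119 to 136 CPM at WT day 10, 187 to 191 CPM at KO day 2 and 320 to 330 CPM at KO day 10, with Gfap at 0 at WT day 10, Gfap and Rbfox3 at 0 at KO day 2 and Snap25 at 0 at KO day 10. Fibroblast markers summed to 355 to 395 CPM at WT day 10 and to 1064 to 1093 CPM at KO day 10, with Fap and Lum at 0 in the latter. The 10 muscle markers summed to 31.9 to 39.7 CPM at WT day 2, 26.8 to 32.3 CPM at WT day 10, 50.3 to 111 CPM at KO day 2 and 72.3 to 73.9 CPM at KO day 10, with Myod1, Myog and Ckm among those at 0 in KO at both days. Other lists were lower at KO day 10 than at WT day 10. Keratinocyte markers summed to 32.0 to 71.6 CPM at WT day 10, with Ivl at 0, and to 5.09 to 6.99 CPM at KO day 10, with Dsg3, Ivl and Krt5 at 0. Endothelial markers summed to 64.1 to 72.5 CPM at WT day 10, with Emcn at 0, and to 33.9 to 39.1 CPM at KO day 10, with Cldn5, Emcn and Erg at 0. The 8 ESC markers, Pou5f1, Sox2 and Nanog among them, summed to 5282 to 6032 CPM at WT day 10 and to 3108 to 3701 CPM at KO day 10, whereas at day 0 and at day 2 the genotypes overlapped. Their part in the results was not tested.

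Among the transport genes, Slc40a1 went on rising in KO after day 2. The gene encodes ferroportin, the iron exporter of mammalian cells, and held 10.6 and 12.8 (day 0), 111 and 132 (day 2) and 51 and 44.6 (day 10) CPM in WT. In KO, Slc40a1 held 1.57 and 2.08 (day 0), 43.1 and 65.3 (day 2) and 152 and 153 (day 10) CPM. At day 2 KO lay below WT, and at day 10 both KO libraries were above the highest WT library of any day. It rose in KO at day 2 (log2 fold change 4.87, SE 0.227, FDR = 6.3e-05) and again between day 2 and day 10 (log2 fold change 1.45, SE 0.190, FDR = 0.00642, edgeR), the latter lost without KO day 10 A (FDR = 0.0618). Kcnk10, a background potassium channel, held 2.01 and 2.60 (day 0), 7.36 and 9.84 (day 2) and 1.38 and 1.55 (day 10) CPM in WT. In KO, Kcnk10 held 4.44 and 6.90 (day 0), 13.8 and 21.4 (day 2) and 19.5 and 23 (day 10) CPM. The 4 treated KO libraries exceeded the WT peak. Its rise at day 2 was log2 fold change 1.62, FDR = 0.00797 (up to 0.0693 without KO day 0 A), and at day 10 it was log2 fold change 1.85, FDR = 0.00242 (edgeR). Kcnip4, which modulates potassium channels, held 5.39 and 6.35 (day 0), 33.8 and 48.8 (day 2) and 32.1 and 36.9 (day 10) CPM in KO against 8.89 and 10.1 (day 0), 28.1 and 30.4 (day 2) and 12.2 and 11.4 (day 10) CPM in WT and rose at both days (day 2 FDR = 0.000209; day 10 FDR = 0.000109, edgeR).

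Abca8b, a lipid transporter, was called higher in KO at day 2 and not at day 10. It held 2.31 and 3.51 (day 0), 8.95 and 15.8 (day 2) and 0.991 and 1.37 (day 10) CPM in WT. In KO, Abca8b held 0.778 and 1.51 (day 0), 4.30 and 11.7 (day 2) and 2.999 and 3.15 (day 10) CPM. Abca8b rose at day 2 (log2 fold change 2.79, SE 0.508, FDR = 0.0129) but was not called at day 10 against day 0 (log2 fold change 1.40, SE 0.510, FDR = 0.107, edgeR). The day 2 call was lost without KO day 0 A (FDR = 0.107) or KO day 2 B, and the drop from day 2 to day 10 was not called (log2 fold change -1.39, FDR = 0.158). With the replicate block, both the drop (FDR = 0.0331) and the difference of day 10 from day 0 (FDR = 0.0141) were called (edgeR). Its KO day 10 level was 38.4% of day 2, beside 9.57% in WT. Of the 49 genes, 4 kept under 50% of the KO day 2 mean at day 10, a share that was not computed over all genes.

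Genes that derive from retroelements included some that were far lower in KO than in WT before treatment. Peg10, an imprinted gene expressed from the paternal copy and made from a retrotransposon's gag and pol, was the most abundant gene of the set in CPM. It held 524 and 781 (day 0), 1825 and 1946 (day 2) and 842 and 753 (day 10) CPM in WT. In KO, Peg10 held 12.6 and 20.01 (day 0), 340 and 414 (day 2) and 1504 and 1360.4 (day 10) CPM. In the KO start it was far below every WT library; at day 10 both KO libraries were above the WT libraries of day 10 and below those of WT day 2. It rose at day 2 (log2 fold change 4.52, SE 0.314, FDR = 0.000215) and between day 2 and day 10 (log2 fold change 1.88, SE 0.280, FDR = 0.0118, edgeR), the latter lost without KO day 2 A, KO day 2 B or KO day 10 A (FDR up to 0.0884, without KO day 10 A). Asprv1, a protease of the retroviral type known from skin, was at 0 and 0.248 (day 0), 0.432 and 0.537 (day 2) and 4.37 and 4.18 (day 10) CPM in KO beside 10.9 and 8.83 (day 0), 26 and 24.8 (day 2) and 8.21 and 9.90 (day 10) CPM in WT, so that every KO library lay below every WT library. It rose between day 2 and day 10 (log2 fold change 3.09, SE 0.523, FDR = 0.0186, edgeR), a call lost without any 1 of the KO day 2 or day 10 libraries (FDR up to 0.103, without KO day 10 A).

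The 3 Cxx1 genes, named Rtl8a, Rtl8b and Rtl8c in RefSeq and derived from a retrotransposon gag, lie next to each other on chromosome X with 0 protein-coding genes between them. They are close copies and may share reads, so that their separate values are uncertain. Cxx1c held 0.549 and 0.765 (day 0), 18.3 and 25.6 (day 2) and 2.54 and 2.23 (day 10) CPM in WT. In KO, Cxx1c held 0 and 0.0586 (day 0), 1.35 and 1.94 (day 2) and 5.23 and 5.15 (day 10) CPM. From 1 count at KO day 0 it was 67.7-fold higher at day 2 (95% interval of counting error 11.7 to 2719) and 221-fold at day 10 (39.0 to 8760). Cxx1b held 14 and 10.5 (day 0), 43 and 44.9 (day 2) and 12.9 and 10.6 (day 10) CPM in WT. In KO, Cxx1b held 9.33 and 6.72 (day 0), 16 and 12.02 (day 2) and 29.7 and 38.7 (day 10) CPM. Cxx1a held 9.97 and 10.97 (day 0), 29.6 in both (day 2) and 10.4 and 11.5 (day 10) CPM in WT and 7.90 and 6.97 (day 0), 12.6 and 8.27 (day 2) and 23.1 and 16.5 (day 10) in KO. Cxx1b and Cxx1a were called higher in KO at day 10 only (Cxx1b FDR = 0.00283; Cxx1a FDR = 0.0117; edgeR), the call of Cxx1a being lost without KO day 10 A (FDR = 0.0780) or KO day 0 B.

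**Figure D3:**
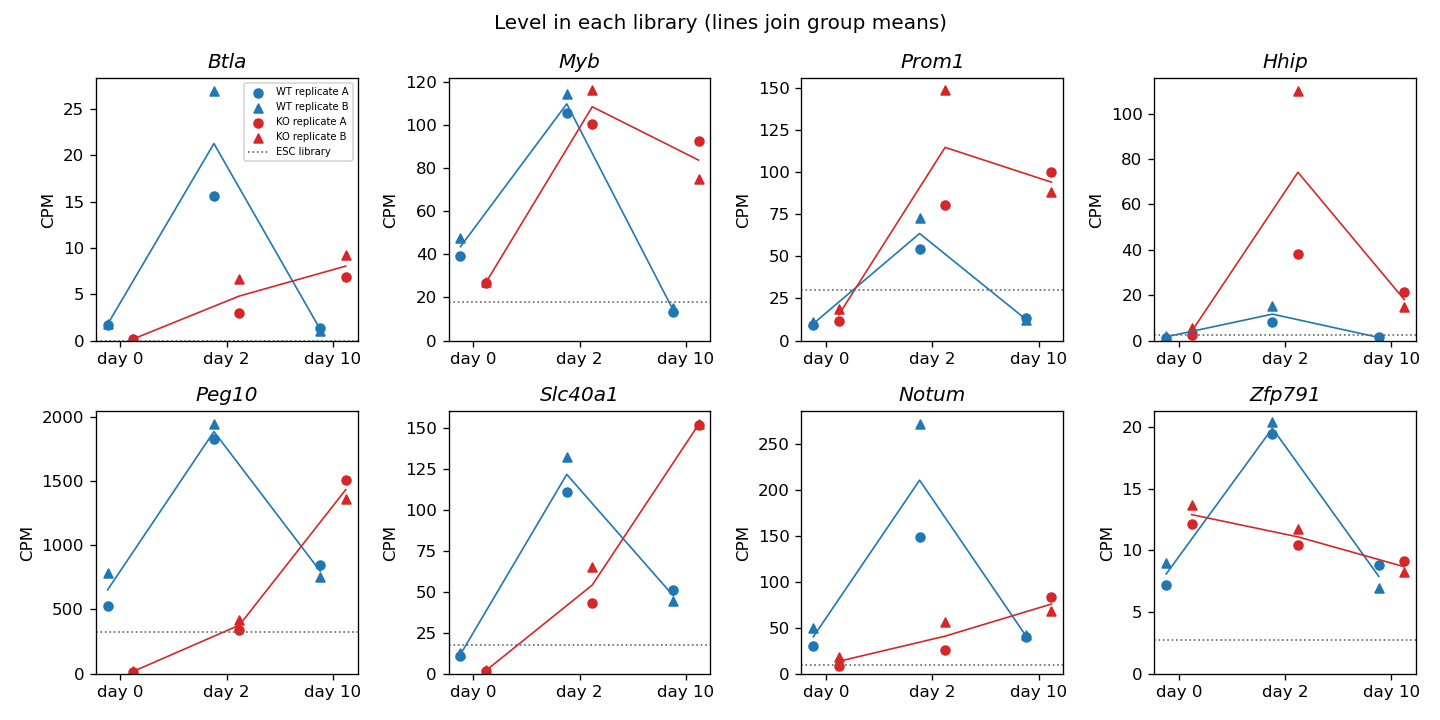
CPM (linear axis from 0) of 8 genes in every pre-iPSC library at day 0, day 2 and day 10, for WT (blue) and KO (red), with circles for library A, triangles for library B, lines through the group means and a dotted line at the ESC library. Each WT line peaks at day 2, by the choice of the genes; the KO means of Btla, Peg10, Slc40a1 and Notum are highest at day 10, those of Myb, Prom1 and Hhip at day 2, and that of Zfp791 at day 0.

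The set also holds enzymes, of which Mgst1 and Adhfe1 rose in KO at both days. Mgst1, a membrane glutathione transferase that guards against oxidised lipids, held 28.9 and 23.6 (day 0), 72.7 and 78.4 (day 2) and 34.9 and 20.7 (day 10) CPM in WT. In KO, Mgst1 held 47.5 and 46.3 (day 0), 146 and 207 (day 2) and 116 and 150.2 (day 10) CPM. All 4 treated KO libraries were above the highest WT library, and it rose at day 2 (log2 fold change 1.89, SE 0.281, FDR = 0.00508) and day 10 (log2 fold change 1.44, SE 0.277, FDR = 0.00905, edgeR; 0.0584 without KO day 10 B and also lost without KO day 0 B). Adhfe1, a mitochondrial alcohol dehydrogenase, held 3.28 and 4.57 (day 0), 28.8 and 29.6 (day 2) and 22.9 and 25.2 (day 10) CPM in KO, above the WT course of 4.81 and 7.06 (day 0), 17.6 and 19.7 (day 2) and 6.39 and 6.21 (day 10) CPM in all 4 treated libraries, and rose at both days (day 2, log2 fold change 2.89, FDR = 0.000222; day 10, log2 fold change 2.56, FDR = 0.000154; edgeR).

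Cyp2ab1, a cytochrome P450, was one of the 2 genes whose further rise after day 2 kept its call in every fit that leaves out 1 library. It held 2.28 and 2.44 (day 0), 14.3 and 16.5 (day 2) and 6.61 and 4.33 (day 10) CPM in WT. In KO, Cyp2ab1 held 0.359 and 0.496 (day 0), 3.64 and 4.16 (day 2) and 16.2 and 15.4 (day 10) CPM. The KO libraries lay below both WT day 2 libraries at day 2, and at day 10 they lay between those same libraries. Within KO, Cyp2ab1 rose from day 2 to day 10 (log2 fold change 1.97, SE 0.239, FDR = 0.00491, edgeR). The other was Sybu, syntabulin, an adaptor for axonal transport, with 20.9 and 23.3 (day 0), 48.3 and 51.1 (day 2) and 18.8 and 14.7 (day 10) CPM in WT. In KO, Sybu held 2.60 and 2.28 (day 0), 8.58 and 8.999 (day 2) and 30.6 and 35.8 (day 10) CPM, a further rise from day 2 to day 10 (log2 fold change 1.87, SE 0.188, FDR = 0.00308, edgeR). Its KO libraries lay below every WT library until day 2 and above those of WT day 10 at day 10.

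Other enzymes had varied courses in KO. Mboat1, a lysophospholipid acyltransferase, held 3.86 and 5.87 (day 0), 17.9 and 23.1 (day 2) and 4.41 and 5.51 (day 10) CPM in WT. In KO, Mboat1 held 4.31 and 4.57 (day 0), 22.4 and 32 (day 2) and 16.2 in both (day 10) CPM. It rose at day 2 (log2 fold change 2.59, SE 0.244, FDR = 0.000595, edgeR), and was still called higher at day 10 than at day 0 (log2 fold change 1.80, SE 0.239, FDR = 0.00160, edgeR). Its day 10 values lay between those of day 0 and day 2, and the drop from day 2 to day 10 was not called (log2 fold change -0.79, SE 0.229, FDR = 0.110, edgeR). DESeq2 called that drop (adjusted p = 0.0217), and so did the fit with the replicate block (FDR = 0.0347, edgeR). Pde3a, which breaks down cyclic AMP and GMP, held 0.359 and 1.54 (day 0), 10.3 and 37.9 (day 2) and 25.6 and 22.7 (day 10) CPM in KO and rose at day 2 (log2 fold change 4.65, FDR = 0.00616, edgeR), and Gpt, alanine aminotransferase, held 4.04 and 3.77 (day 0), 12.2 and 15.3 (day 2) and 16.1 and 15.9 (day 10) CPM and rose too (1.79, FDR = 0.00199, edgeR). Chst1, a keratan sulfotransferase, held 2.99 and 4 (day 0), 21.9 and 34.6 (day 2) and 8.32 and 5.35 (day 10) CPM in WT. In KO, Chst1 held 5.76 and 10.9 (day 0), 5.23 and 5.62 (day 2) and 15.3 and 14 (day 10) CPM. Both day 2 libraries lay just below both of day 0 (log2 fold change -0.61, SE 0.329, FDR = 0.414, edgeR). Lhpp, a histidine phosphatase, held 26.5 and 12.9 (day 0), 94.1 and 59.8 (day 2) and 11.6 and 14.5 (day 10) CPM in WT. In KO, Lhpp held 32.8 and 15 (day 0), 64.7 and 33.3 (day 2) and 60.7 and 55.7 (day 10) CPM. Library A exceeded B at day 0 and at day 2, and Lhpp was not called at either day (FDR = 0.402 and 0.189, edgeR).

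The acetyltransferase-like pair Cml3 and LOC100504710, named Nat8f3 and Nat8f6 in RefSeq, are neighbours on chromosome 6 and close copies of each other, so that their split is uncertain. Cml3 held 170.3 and 234 (day 0), 488 and 645 (day 2) and 114 and 82.3 (day 10) CPM in WT. In KO, Cml3 held 59.1 and 83.7 (day 0), 176 and 250.2 (day 2) and 281 and 282 (day 10) CPM. Cml3 rose at day 2 (log2 fold change 1.56, SE 0.251, FDR = 0.00691; lost without KO day 0 A, FDR = 0.0686, or KO day 2 B) and at day 10 (log2 fold change 1.93, SE 0.253, FDR = 0.00151, edgeR). In the ESC library it was at 0.104 CPM. Akr1c13, an aldo-keto reductase with close copies, was called at both days, with 1.55 and 1.14 (day 0), 16.5 and 11.4 (day 2) and 4.99 and 5.16 (day 10) CPM in WT. In KO, Akr1c13 held 0.404 and 0.199 (day 0), 1.49 and 1.41 (day 2) and 3.999 and 3.69 (day 10) CPM. The call at day 2 was lost in 3 fits (FDR up to 0.104, without KO day 0 B). Chromosome 6 holds 9 of the 48 matched genes (18.8%), against 5.14% of RefSeq protein-coding genes, and 2 of the 9 are this pair.

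The remaining genes have less settled functions. Lhfpl2, a tetraspan membrane protein, held 4.84 and 6.85 (day 0), 57.7 and 74 (day 2) and 24.4 and 21 (day 10) CPM in WT. In KO, Lhfpl2 held 7.14 and 7.79 (day 0), 14.4 and 19.4 (day 2) and 37.2 and 35.9 (day 10) CPM. It rose in KO at day 2 (log2 fold change 1.16, FDR = 0.00815) and again to day 10 (log2 fold change 1.07, FDR = 0.0220; edgeR). Both calls were lost without single KO libraries, with FDR up to 0.0738 when KO day 2 B was left out and 0.149 when KO day 10 A was. The gene 1700084C01Rik, Ccdc190 in RefSeq, went from 2 counts at KO day 0 to 61.1-fold at day 2 (95% interval of counting error 16.5 to 512) and 236-fold at day 10 (64.9 to 1957), with 0.0898 and 0 (day 0), 2.49 and 3.42 (day 2) and 9.69 and 12.5 (day 10) CPM in KO and 0.151 and 0.208 (day 0), 7.07 and 9.36 (day 2) and 1.10 and 0.906 (day 10) CPM in WT.

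Klhl32, of the family of ubiquitin ligase adaptors, held 0.449 and 0.496 (day 0), 3.26 and 4.499 (day 2) and 5.81 and 3.82 (day 10) CPM in KO beside 0.681 and 1.09 (day 0), 6 and 5.07 (day 2) and 1.21 and 1.62 (day 10) CPM in WT, and rose at both days (day 2 FDR = 0.00199; day 10 FDR = 0.000680; edgeR). Fam154a, a microtubule stabiliser of cilia named Saxo1 in RefSeq, held 2.14 and 2.38 (day 0), 4.51 and 4.97 (day 2) and 7.50 and 5.995 (day 10) CPM in KO and rose at day 10 only (FDR = 0.00699, edgeR), with all KO day 2 libraries below those of WT day 2 (13.3 and 12.3 CPM). In 6430573F11Rik, a methyltransferase-like gene (Trmt9b), KO libraries held 3.50 and 3.62 (day 0), 5.32 and 4.90 (day 2) and 4.69 and 5.03 (day 10) CPM and gave no call at day 2 (FDR = 0.296) or day 10 (FDR = 0.328, edgeR). The neighbour of Cml3, LOC100504710, held 41.7 and 57.1 (day 0), 124 and 179 (day 2) and 26 and 18.3 (day 10) CPM in WT. In KO, LOC100504710 held 13.4 and 20.7 (day 0), 40.7 and 58.4 (day 2) and 66.7 and 49.5 (day 10) CPM. Its day 2 call was lost without KO day 0 A (FDR = 0.116) or KO day 2 B.

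**Figure D4:**
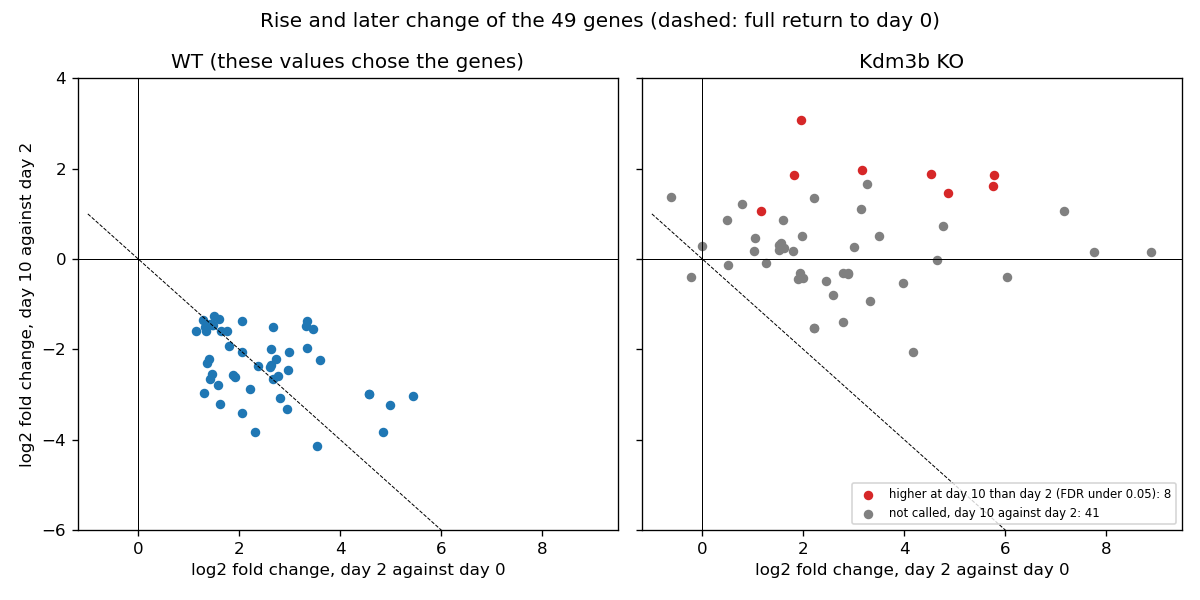
Log2 fold change from day 0 to day 2 (x axis) against log2 fold change from day 2 to day 10 (y axis) for each of the 49 genes, in WT (left, where these values chose the genes) and in KO (right), with a dashed line where a gene would return to its day 0 level; fitted values of genes with 0 counts at KO day 0 (Lyg1, Dmrtc1b and Zfp677) depend on a prior count. The WT points lie around the dashed line with a median of -2.29 on the y axis, while the KO points spread on both sides of 0 with a median of 0.24, 8 of them called higher at day 10 than at day 2 (red), and Hhip lowest at -2.06.

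Levels in the 2 genotypes crossed over between day 2 and day 10. Because the WT values chose the genes, what follows is a description with no test. At day 0 both KO libraries lay below both WT libraries in 29 of the 49 genes (19.1% of all genes with a count) and above in 12 (12.3%). At day 2 they lay below in 31 (21.3%) and above in 11 (13.4%). At day 10 they lay above in 42 (31.1%) and below in 4 (42.6%). The median log2 fold change of KO over WT was -0.64 at day 0, -1.08 at day 2 and 1.59 at day 10, and 34 genes had a KO day 10 mean at least 2 times that of WT. A KO day 10 mean at or above the WT day 2 mean was seen in 16 genes, among them Prom1, Hhip, Zeb2, Fras1 and Mgst1. The rule held WT day 10 low and WT day 2 high, and shares over all genes were not computed for the 34 and the 16.

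The median over the genes of the mean CPM ran 3.77, 20.5 and 4.96 in WT at day 0, day 2 and day 10, and 2.44, 13.8 and 16.2 in KO. As a share of each gene's day 2 mean, day 10 came to a median of 20.6% in WT (from 5.67 to 42.3%, capped by the rule) and of 121% in KO. In the ESC library the median was 1.99 CPM. There 48 of the 49 genes were below both WT day 2 libraries, 45 below both KO day 10 libraries and 32 below both WT day 10 libraries, with 17 genes under 1 CPM. The rule chose genes that are high at WT day 2, and the shares over all genes were not computed. These counts therefore do not show that a low ESC level is particular to the set. Btla, Lyg1, Kcnk10 and Fam154a were at 0 CPM in the ESC library, which has no replicate. On the TPM scale, which accounts for gene length, the WT day 2 level of the set ran from 1.21 (Fras1) to 618 (Cml3), with a median of 16.9.

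The limits of the choice are close to some genes. Akr1c13 (lower WT day 2 value 11.4 CPM, highest other 5.16 CPM) and Cyp2ab1 (14.3 and 6.61 CPM) lay just inside the fold limit, at 2.01 each, and Apobec1 (117 and 58.0 CPM) and Dmrtc2 (7.67 and 3.42 CPM) just outside it. Klhl32 and Tshr, with 5.07 and 5.37 CPM, lay just above the minimum, and Zc3h12d and 4933404M02Rik, with 4.32 and 4.21 CPM, just below it.

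Series-wide facts that touch these values are few. The pre-iPSC libraries held 14891294 to 26430050 expected counts and the ESC library 20083825. The 8 ESC markers summed to 2542 to 8900.2 CPM in the pre-iPSC libraries and to 6712 CPM in the ESC library, with 0 of them at 0. Kdm3b itself stood at 146 to 261 CPM in the 6 WT libraries and at 17.7 to 65.5 CPM in the 6 KO libraries, so that some RNA remained, and whether those reads fall in the deleted part was not analysed here. At days 0 and 2 library B differed from A in a way tied to gene length: 39 of the 49 genes were higher in B at WT day 2 and 41 at KO day 2, against 19 and 16 at day 10, and the Spearman correlation of length with the log2 ratio of B to A over the 49 genes was 0.51 and 0.56 at day 2 and -0.069 and 0.0084 at day 10 (0.43 and 0.44, -0.081 and -0.059 over all genes tested, all within single pairs of libraries). The median length was 2682 bases for the set and 2345 for all genes. The part of this in the results was not tested.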

How the data were processed

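RNA from 13 libraries was sequenced, 12 of pre-iPSCs and 1 of ESCs. The submitters' processing notes name Bowtie2, RSEM and the mm9 build, without versions. The deposited files give RSEM's expected counts per gene, in which a read with several possible origins is split, and 35.0 to 43.8% of the values were not whole (tolerance 0.005). The deposited TPM, computed by the authors, were used only to compare levels between genes. CPM was computed from the expected counts and the column sum. For tests, expected counts were rounded and fitted in R 4.3.3 with edgeR 4.0.16 (filterByExpr, TMM, quasi-likelihood test, 6 groups, 6 residual degrees of freedom, common biological coefficient of variation 0.266), in which the WT libraries enter the estimate of the spread. Alternatives used DESeq2 1.42.0, other filters, size factors, thresholds, a replicate block and each library left out. On simulated counts for KO day 2 against day 0, over 14320 genes, 6 of 67 genes given a 2-fold change were called, 63 of 67 given 4-fold and 66 of 66 given 8-fold, and so were 6 of 14120 unchanged genes. The simulation gave every gene the same coefficient of variation, 0.266, and no difference between A and B, unlike the data. Intervals and floors (3 counts over the group) cover counting error only.

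Genes were named by a rule: the 10 highest and the 10 sharpest WT peaks, the 10 largest called changes in each KO comparison, members in gene lists, genes beside the thresholds, and up to 6 per KO class; others were named for their role after their values were seen. The values of 1 member are not reported here, although it is in the counts. The members and lists were chosen with earlier results of these data known.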

Additional observations from a re-analysis of the deposited data

Results flagged for a closer look

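In 22 comparisons given here, every KO library moved one way between 2 days and every WT library the other way. The WT direction was fixed by the choice of the genes, so that only the KO direction is a measurement, and the difference between the genotypes was not tested.

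From day 0 to day 2, both KO libraries lay below both of day 0 in 2 genes, Chst1, with a KO log2 fold change of -0.61, and Zfp791, with -0.23. From day 2 to day 10, both KO libraries lay above both of day 2 in 20 of the genes given here. The KO log2 fold changes between those days were, from the largest down, Asprv1 3.09, Cyp2ab1 1.97, Peg10 1.88, 1700084C01Rik 1.87, Sybu 1.87, Cxx1c 1.62, Slc40a1 1.45, Chst1 1.38, Akr1c13 1.35, Cxx1b 1.23, Thbs2 1.11, Dmrtc1b 1.07, Lhfpl2 1.07, Notum 0.87, Cxx1a 0.86, Btla 0.72, Lrrn2 0.51, Fam154a 0.46, Cml3 0.36 and Gpt 0.17. Of these 20 genes, 8 were called higher at FDR under 0.05 in edgeR's quasi-likelihood test, namely Asprv1, Sybu, Cyp2ab1, Peg10, 1700084C01Rik, Cxx1c, Slc40a1 and Lhfpl2, and no gene of the set was called in a fit on the KO libraries alone.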

How the results depend on the processing

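In the alternatives run, 0 of the members' values changed sign past a threshold. Of the 36 genes higher at day 2 against day 0, the KO libraries alone gave 23, and DESeq2 gave 39; leaving out 1 library in turn gave 25 to 35. With a 3-fold choice limit 11 genes remained, of which 9 rose at day 2 and 9 at day 10 against day 0. With a 1.5-fold limit there were 106 genes, of which 68 and 82 rose. Of these 106, 2 met the peak in KO with the KO limit also lowered to 1.5-fold, a share that was not computed over all genes. For day 10 against day 0 (41 genes) leaving out 1 library gave 34 to 41. The 0 genes lower at day 10 than at day 2 became 2 with DESeq2 (Hhip and Mboat1) and 0 to 1 when 1 library was left out (1 without KO day 2 A), and the 0 genes with a KO peak 0 to 5. The set numbered 46 with TMM-scaled CPM, of which 44 were shared.

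Libraries A and B share a letter across groups, not a stated culture. The B minus A differences correlated at 0.909 to 0.936 among the 4 groups of days 0 and 2 and at -0.167 to -0.0097 for pairs with a day 10 group. With a replicate block over all groups 39 genes rose at day 2, 43 at day 10, and 3 were lower at day 10 than at day 2 (Abca8b, Hhip and Mboat1). With the block at days 0 and 2 only, the last became 5, with Myb and Tshr added. Of all genes tested, 576 were higher and 339 lower in KO at day 2 against day 0, 899 and 579 with the block, 2319 and 1906 with the block at days 0 and 2 only, 876 and 659 with DESeq2 and 193 and 83 with the KO libraries alone. Between day 2 and day 10 the counts were 357 higher and 87 lower, 706 and 446 with the block, 2532 and 2363 with the block at days 0 and 2 only, 896 and 445 with DESeq2 and 0 and 0 with the KO libraries alone. At day 10 against day 0 they were 1422 and 743, 1904 and 1380, 3633 and 3466, 1803 and 1221, and 662 and 191 in that order. The 8 members that rose after day 2 became 13 with the block or DESeq2, 21 with the block at days 0 and 2 only, 0 with the KO libraries alone and 2 to 10 when 1 library was left out.

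Precision is limited by 2 libraries per group. In simulated counts, which gave every gene the same spread and no difference between A and B, most 2-fold changes were not called. Genes differ in spread in the data. Some changes near 2-fold were called there, such as Lhfpl2 in KO at day 2 against day 0 (log2 fold change 1.16, FDR = 0.00815, edgeR). The cause of the changes between settings was not tested.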
